A study of Mus musculus with 8 samples.

Results

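The mitotic kinesins described here were 10 genes, Kif11, Kif14, Kif15, Kif18a, Kif18b, Kif20a, Kif20b, Kif23, Kif2c and Kif4, chosen by symbol as motors of the spindle and its midzone and matched to the Ensembl identifiers of a table of 56953 genes. All 10 were found, and all 10 passed the filter on low counts in every comparison. RNA was sequenced from CT26, a mouse colon carcinoma cell line, as transplanted tumours given normal saline or mLJZD and as cultures kept for 48 hours with 10% control serum or 10% serum containing mLJZD. The labels do not spell out mLJZD, they name no strain, age or number of animals, and the series title places the work around nobiletin, CHEK1, histone acetylation and CENPM. Each of the 4 groups had 2 libraries, and nothing in the labels says that they came from separate animals or cultures, so the p-values measure only how far these libraries lay apart, which may reflect technical spread alone. The tumours hold host cells beside CT26 cells, so that for bulk RNA fewer cells of a type and less RNA per cell cannot be told apart.

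Kinesins are motors that use ATP to walk along microtubules or to take their ends apart. Those of mitosis push the spindle poles apart, set the length of the microtubules that hold the chromosomes, and then bundle the midzone between the separating chromosomes, where the cleavage furrow forms. Their transcripts rise late in the cell cycle, and many of their promoters carry the cell cycle genes homology region (CHR), an element bound by the DREAM and MMB complexes.

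The start of the gene was inspected for the CHR letters TTTGAA on both strands, in RefSeq windows of build GRCm38.p6 that run from 250 bases before the start to 50 after it. Of the 10 genes, 9 had a window, and 8 of these held the letters, 88.9%, beside 17.9% of all 32851 windows. In the 100 bases from 70 before the start to 30 after it, 6 of the 9 held them, 66.7%, beside 5.11% of all windows. These 6 stretches are shown because they carry the shared letters, which are in capitals; each is read 5′ to 3′ on the strand of the gene, where TTCAAA is TTTGAA on the other strand.
Kif11 at chr19:37376312-37376411, plus strand: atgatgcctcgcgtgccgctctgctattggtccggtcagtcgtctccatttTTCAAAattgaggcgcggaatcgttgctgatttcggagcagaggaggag
Kif15 at chr9:122951011-122951110, plus strand: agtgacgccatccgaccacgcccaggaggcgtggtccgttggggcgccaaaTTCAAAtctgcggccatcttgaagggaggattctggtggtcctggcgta
Kif18b at chr11:102925095-102925194, minus strand: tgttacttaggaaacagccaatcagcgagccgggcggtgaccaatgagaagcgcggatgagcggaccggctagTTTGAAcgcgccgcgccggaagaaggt
Kif20b at chr19:34922288-34922387, plus strand: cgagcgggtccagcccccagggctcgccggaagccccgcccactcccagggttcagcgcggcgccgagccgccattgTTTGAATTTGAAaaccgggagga
Kif23 at chr9:61946770-61946869, minus strand: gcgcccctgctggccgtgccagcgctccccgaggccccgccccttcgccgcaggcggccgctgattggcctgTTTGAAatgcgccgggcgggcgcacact
Kif4 at chrX:100625995-100626094, plus strand: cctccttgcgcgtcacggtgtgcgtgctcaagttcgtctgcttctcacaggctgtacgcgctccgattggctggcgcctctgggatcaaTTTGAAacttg
Kif11 and Kif15 carried the letters just before the start, Kif18b, Kif20b, Kif23 and Kif4 just after it, and Kif20b had 2 copies side by side. Kif14 and Kif2c held them farther upstream, beginning at -228 and -103, and Kif18a had no match in its window. The letters CCAAT, searched in the same way and overlapping no CHR match, were in 5 of the 9 windows, 55.6%, beside 37.4% of all windows. Among the transport kinesins, which carry cargo rather than build spindles, 3 of 25 windows held the CHR letters. Other mitotic genes shared them: 7 of 9 windows of proliferation markers, 11 of 16 of central spindle and cytokinesis genes, 8 of 21 of spindle assembly genes and 2 of 7 of spindle kinesins outside the 10 held them. A match of letters is no measure of binding.

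Library totals ran from 16594912 to 29363861 counts, and a single kinesin had from 523 to 4989 counts in a library. The pairs of libraries within a group differed by more than counting noise, with a chi-square per degree of freedom of 2.58 to 10.7. Together the 10 kinesins held 0.0883% of the counts in both saline tumours, 0.0719% and 0.0741% in the mLJZD tumours, 0.0541% and 0.0569% in the control cultures and 0.0822% and 0.0803% in the mLJZD cultures. The kinesin share was thus lower under mLJZD in the tumours and higher under mLJZD in the cultures, without overlap in either. Of 9 intestinal epithelial markers, Cdx2 was at 0 counts in the tumours of both groups, Epcam and Cdh1 in the control cultures and Epcam and Vil1 in the mLJZD cultures.

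The level per length was compared within each group, as CPM (counts scaled to a common library total) per kilobase of the longest annotated transcript. Kif20a, which carries the chromosomal passenger complex to the midzone, stood highest in all 4 groups, at 53.2 ± 0.256 CPM per kilobase (SD, n = 2) in saline tumours, 42.2 ± 2.22 in mLJZD tumours, 28.4 ± 4.49 in control cultures and 47.8 ± 2.22 in mLJZD cultures. Kif23, the motor subunit of centralspindlin, was second in every group, with 33.1 ± 1.30, 29.3 ± 0.0986, 26.2 ± 0.844 and 35.9 ± 0.220 CPM per kilobase in the same order. Kif14, which binds the midzone protein Prc1 and citron kinase, was last in every group, at 3.81 ± 0.174, 3.48 ± 0.0583, 2.68 ± 0.0917 and 5.60 ± 0.330.

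The middle of the order differed between groups. Kif11 was number 3 in saline tumours at 28.4 ± 0.395 CPM per kilobase and number 6 in control cultures at 10.9 ± 0.196. Kif20b was number 6 in saline tumours at 16.8 ± 0.324 and number 9 in control cultures at 5.20 ± 0.221. Neighbours in the order whose libraries overlapped were Kif4, Kif20b and Kif18b in saline tumours, Kif20a and Kif23 in control cultures, and Kif18b and Kif15 in mLJZD cultures. In mLJZD tumours no neighbours overlapped. These ranks rest on 1 annotated transcript length per gene, from 2842 bases for Kif2c to 8943 for Kif14.

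**Figure D1:**
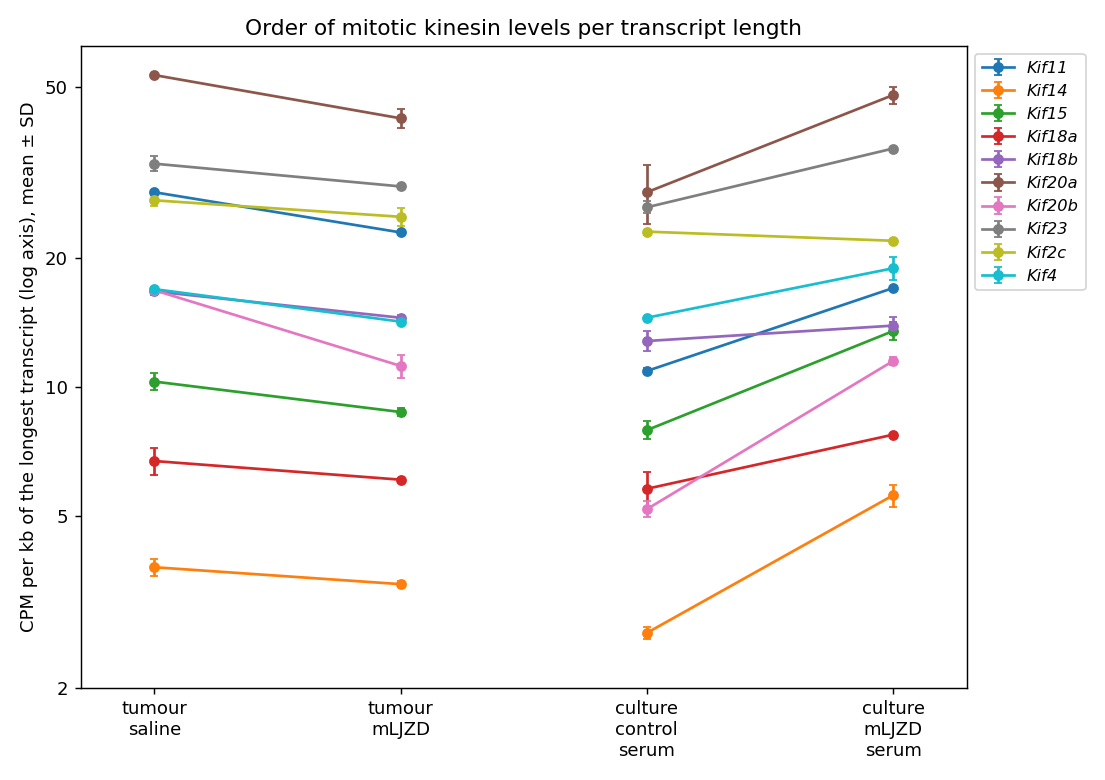
Level per length of the 10 kinesins in the 4 groups, as CPM per kilobase of the longest transcript on a log axis; points are means of 2 libraries, bars are SD, and lines join the groups of the same material. Kif20a stood highest and Kif14 lowest in every group, and Kif20b lay at 16.8 in saline tumours and 5.20 in control cultures.

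In the tumours, mLJZD was compared with saline. 7 of the 10 kinesins were lower under mLJZD, none was higher, and Kif20b fell furthest. The call is an adjusted p under 0.05 in edgeR's quasi-likelihood test, adjusted over all 15417 genes tested; 16.0% of those genes were called lower and 15.4% higher. The kinesins' median log2 fold change was -0.19, beside 0.00 for all genes. For all 10, both mLJZD libraries lay under both saline libraries in CPM, an order seen in 36.6% of all genes, with the opposite order in 27.9%. An exact permutation test of 2 libraries against 2 cannot go below p = 0.333, so the calls rest on the model fitted across all genes.

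Among the motors that separate the poles, Kif11 cross-links antiparallel microtubules and slides them apart. It had 136 and 138 CPM in saline tumours and 111 and 110 CPM in mLJZD tumours, or a log2 fold change by edgeR of -0.28 (SE 0.05, adjusted p = 0.000584). Kif15, which can keep the spindle bipolar when Kif11 is inhibited, had 48.5 and 51.7 CPM against 43.2 and 41.8 CPM, a change of -0.20 (SE 0.07, adjusted p = 0.0241). Both pole motors were therefore lower in each mLJZD library, Kif11 with the closer replicates.

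Of the motors at chromosomes and microtubule ends, Kif4 and Kif18b passed the test. Kif4, the chromokinesin that also limits midzone length together with Prc1, had 84.3 and 83.8 CPM in saline tumours and 69.8 and 71.2 CPM in mLJZD tumours, a change of -0.22 (SE 0.05, adjusted p = 0.00220). Kif18b, which works at the ends of astral microtubules, had 56.3 and 54.9 CPM against 48.7 and 47.8 CPM, a change of -0.17 (SE 0.06, adjusted p = 0.0372). Kif18a, which damps chromosome movement at the metaphase plate, and Kif2c, a depolymerase that corrects wrong kinetochore attachments, were not called. Kif18a had 41.6 and 46.0 CPM against 39.3 and 39.9 CPM (log2 fold change -0.11, SE 0.07, adjusted p = 0.259). Kif2c had 78.9 and 75.7 CPM against 68.5 and 73.2 CPM (log2 fold change -0.09, SE 0.05, adjusted p = 0.192). Their libraries kept the same order without overlap, at distances smaller than the widest spread within a group.

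The midzone and cytokinesis motors held both the largest and some of the smallest changes. Kif20b, a kinesin needed for the last steps of cytokinesis in mouse neural progenitors, had 94.5 and 91.9 CPM in saline tumours and 59.5 and 65.0 CPM in mLJZD tumours, a change of -0.55 (SE 0.05, adjusted p = 4.53e-07). Kif20a had 195 and 196 CPM against 149 and 161 CPM, a change of -0.30 (SE 0.05, adjusted p = 0.000395). For both genes the gap between the groups was wider than the spread within them. Kif23 had 115 and 109 CPM against 99.4 and 99.8 CPM, a change of -0.14 (SE 0.05, adjusted p = 0.0380). Kif14 was not called, with 33.0 and 35.2 CPM against 30.8 and 31.5 CPM (log2 fold change -0.10, SE 0.08, adjusted p = 0.375).

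Fewer kinesins were called in the tumours with 1 library left out, and fewer of all genes were called as well. The fold changes in these fits ran from -0.30 to -0.26 for Kif11 and from -0.60 to -0.50 for Kif20b. Kif4 stayed at -0.22, and Kif18a moved most, from -0.19 to -0.03. Without saline replicate 1, 5 kinesins were called lower, without saline replicate 2, 4, and without mLJZD replicate 2, 3, namely Kif11, Kif20a and Kif20b. Without mLJZD replicate 1 only Kif20b was called, with a log2 fold change of -0.50 (edgeR adjusted p = 0.0390). DESeq2, a fit with no filter on low counts and a fit of all 8 libraries each called 4, Kif11, Kif20a, Kif20b and Kif4. All 10 fold changes were negative under every one of these settings.

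**Figure D2:**
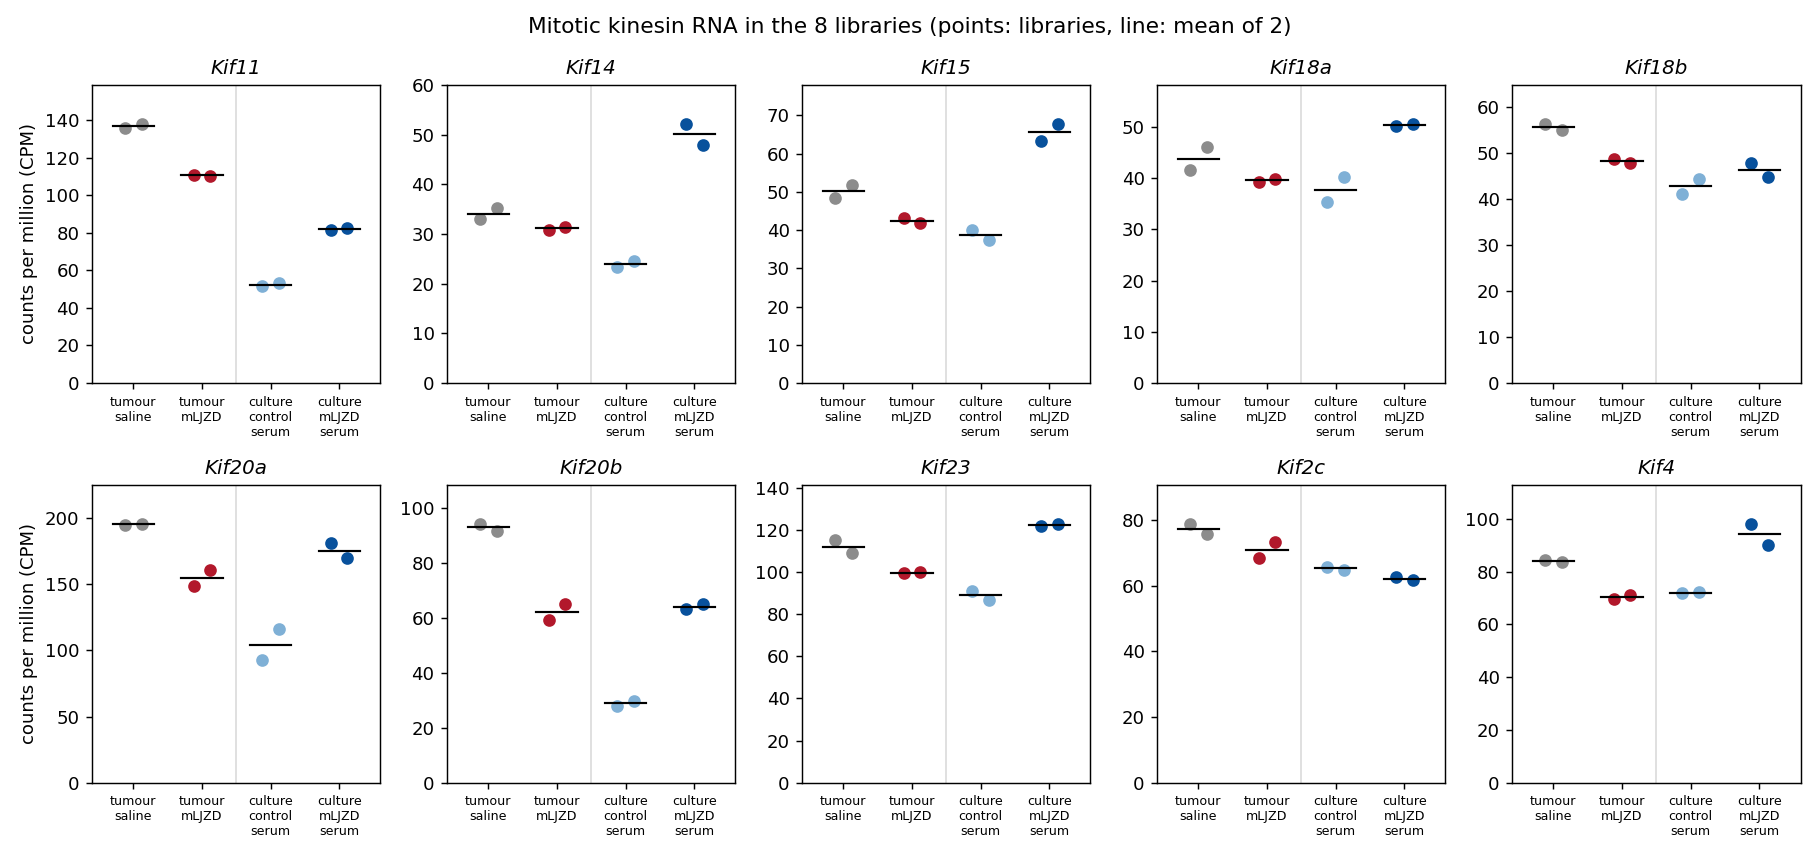
CPM of each kinesin in the 8 libraries; each point is 1 library and each line the mean of the 2 libraries of a group. In tumours the mLJZD points lie under the saline points for all 10 genes, and in cultures they lie above the control points for all but Kif2c.

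Markers of other cells moved between the tumour groups. The summed level of 6 skeletal muscle markers was 2200 to 2230 CPM in saline tumours and 385 to 391 CPM in mLJZD tumours. The 6 B and plasma cell markers summed to 26.5 to 27.7 against 323 to 358 CPM, the 6 macrophage markers to 1230 to 1240 against 1030 to 1070 CPM, and the 6 T cell markers to 57.4 to 60.4 against 46.3 to 51.8 CPM. All members of these lists were detected in both tumour groups. Neutrophil markers, of which Ly6g was at 0 in saline tumours, summed to 18.4 to 18.6 against 28.3 to 30.9 CPM. Fibroblast markers, most of which the cultures also expressed, summed to 3190 to 3210 against 3550 to 3640 CPM, endothelial markers to 201 to 202 against 205 to 211 CPM, and the 9 intestinal epithelial markers to 296 to 301 against 184 to 186 CPM. The part of these cells in the kinesin levels was not tested.

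In the cultures, serum containing mLJZD was compared with control serum. 8 of the 10 kinesins were higher with mLJZD serum, and none was lower. Kif20b and Kif14 rose furthest. Of the 13299 genes tested, 28.8% were called higher and 26.6% lower by edgeR. Among protein-coding genes the share called higher rose with the length of the longest transcript. It was 8.24% at 2000 to 3000 bases, 45.7% at 4000 to 5000 bases and 82.9% at 8000 bases and more. The kinesins' median log2 fold change was 0.50, beside -0.01 for all genes. In CPM, 9 of the 10 had both mLJZD libraries above both control libraries, an order that 42.0% of all genes showed; Kif2c had the opposite order, as did 35.4% of all genes.

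Of the pole motors, Kif11 had 51.7 and 53.1 CPM with control serum and 81.7 and 82.4 CPM with mLJZD serum, or a log2 fold change by edgeR of 0.59 (SE 0.08, adjusted p = 2.01e-05). Kif15 had 39.9 and 37.3 CPM against 63.4 and 67.8 CPM, a change of 0.71 (SE 0.09, adjusted p = 1.01e-05). For both, the gap between the groups was many times the spread within them.

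At chromosomes and microtubule ends the picture was mixed. Kif4 had 71.7 and 72.4 CPM with control serum and 98.2 and 90.2 CPM with mLJZD serum, a change of 0.33 (SE 0.08, adjusted p = 0.00287). Kif18a had 35.3 and 40.2 CPM against 50.2 and 50.6 CPM, a change of 0.36 (SE 0.09, adjusted p = 0.00400). Kif18b and Kif2c, which in human cells act together on astral microtubules, were the pair that did not pass the test. Kif18b had 41.1 and 44.3 CPM against 47.7 and 44.7 CPM (log2 fold change 0.06, SE 0.09, adjusted p = 0.619), groups that nearly touch. Kif2c had 65.8 and 64.8 CPM against 62.5 and 61.8 CPM (log2 fold change -0.13, SE 0.08, adjusted p = 0.185). Under upper-quartile scaling, which shifted the median of all genes by -0.11, Kif2c was called lower at -0.24 (edgeR adjusted p = 0.0179), and Kif18b stood at -0.06; in the fit of all 8 libraries Kif2c was also called lower and Kif18b stood at -0.02.

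All of the midzone and cytokinesis motors rose in the cultures under edgeR. Kif20b had 28.0 and 29.8 CPM with control serum and 63.3 and 65.0 CPM with mLJZD serum, a change of 1.09 (SE 0.09, adjusted p = 1.99e-07). Kif14 had 23.3 and 24.5 CPM against 52.2 and 48.0 CPM, a change of 1.01 (SE 0.10, adjusted p = 1.03e-06). For both, every mLJZD library lay far above the control libraries. Kif20a had 92.7 and 116 CPM against 181 and 170 CPM, a change of 0.70 (SE 0.09, adjusted p = 2.03e-05), with control libraries that lay well apart from each other. Kif23 had 91.0 and 86.9 CPM against 122 and 123 CPM, a change of 0.40 (SE 0.08, adjusted p = 0.000429). Leaving out any 1 of the 4 libraries kept all 8 calls of the kinesins in the cultures. The 9 intestinal epithelial markers summed to 175 to 188 CPM with control serum and 239 to 240 CPM with mLJZD serum; their part in the kinesin levels was not tested.

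Fold changes in the cultures ran with transcript length across all genes, which bears on kinesins of such different lengths. Protein-coding genes with transcripts under 1000 bases had a median change of -0.76 on the log2 scale and those of 8000 bases and more a median of 1.00, and the median rose through every class between them. In the tumours the same medians ran from 0.09 to -0.08. Kif14, at 8943 bases, lay on the median of its class in the cultures, and Kif18b lay near its own. Kif20a, Kif20b, Kif15, Kif11 and Kif23 lay above their class medians, as did Kif4 and Kif2c by smaller margins. Kif18a, at 6509 bases, lay below its class median.

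**Figure D3:**
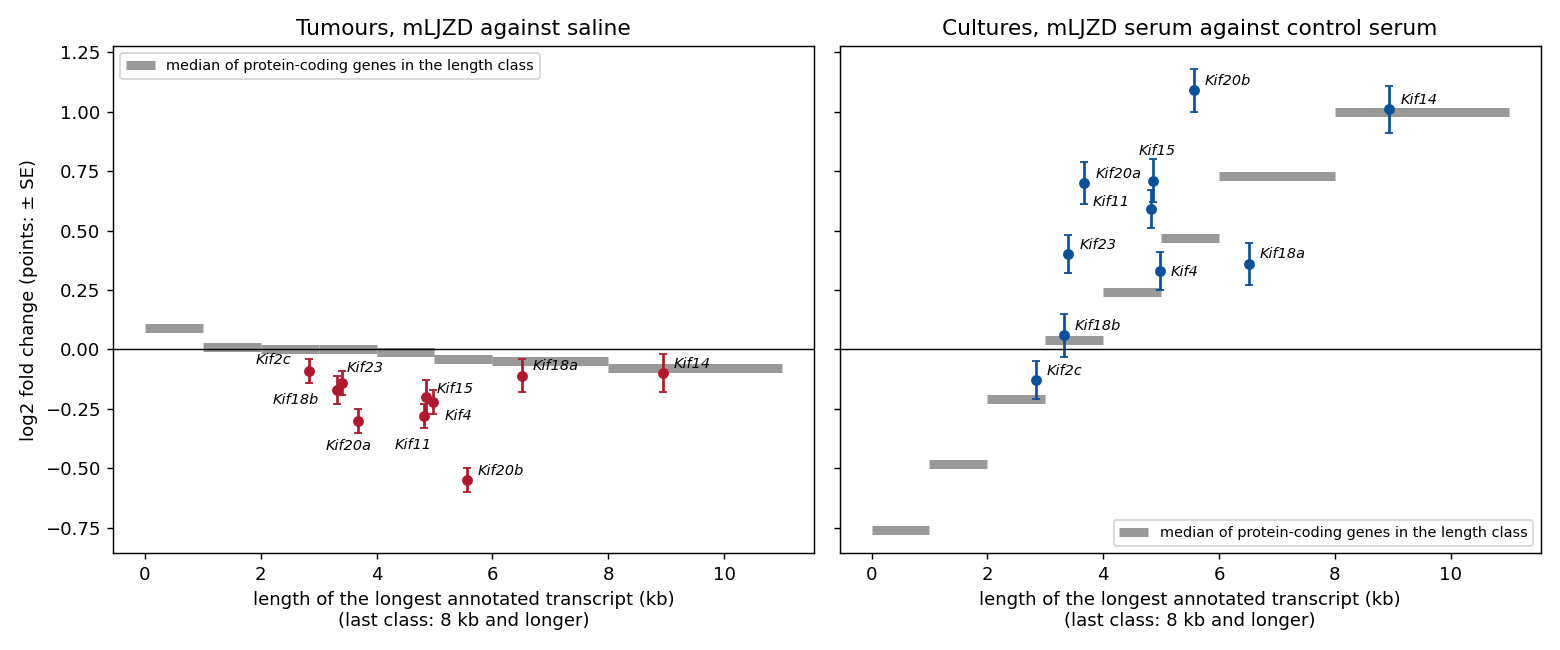
log2 fold change with SE of each kinesin against the length of its longest transcript in kilobases, for tumours and cultures; grey bars are medians of protein-coding genes in a length class. In cultures the class medians climb from -0.76 to 1.00 and Kif14 lies on its class median, while in tumours the bars stay near 0 and Kif20b lies far under its class.

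When a smooth trend with transcript length and GC content was taken out of each library, 4 kinesins were higher in the cultures and 1 was lower, beside 20.9% and 16.2% of all genes. The length medians then ran from -0.03 to 0.09. The share of protein-coding genes called higher still rose with length, from 10.1% under 1000 bases to 34.8% at 8000 bases and more. Kif20a stood at 0.56 (edgeR adjusted p = 0.000195), Kif20b at 0.50 (0.000349), Kif15 at 0.28 (0.0161) and Kif23 at 0.28 (0.00643). Kif18a turned to -0.38 (0.00436). Kif14 fell from 1.01 to 0.07 (0.605), Kif11 to 0.17 (0.0875) and Kif4 to -0.09 (0.397), none of them called. The kinesins that kept their rise were thus Kif15, Kif20a, Kif20b and Kif23. In the tumours, where the trend was slight, 6 of 7 calls stood, beside 14.7% of all genes called lower and 18.6% higher, and Kif18b missed the threshold (edgeR adjusted p = 0.151). Whether the length trend arose in the cells or in the libraries was not tested.

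**Figure D4:**
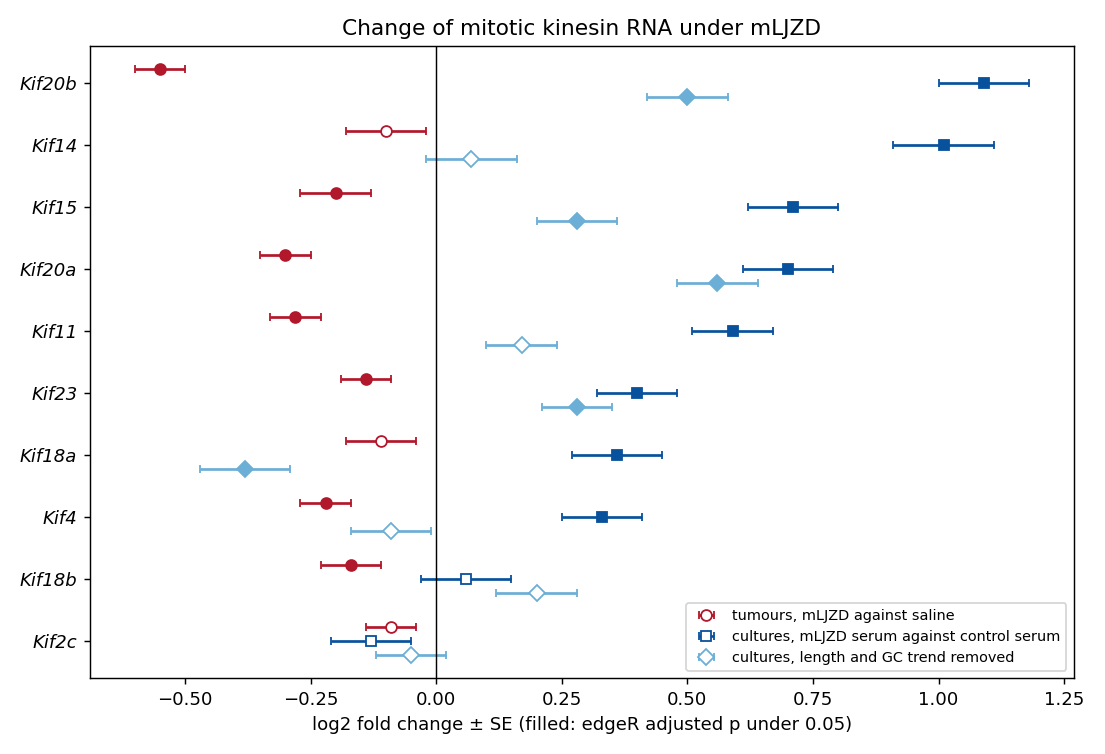
log2 fold change with SE from edgeR on the horizontal axis for each kinesin: circles are mLJZD against saline in tumours, squares mLJZD serum against control serum in cultures, and diamonds the cultures with the length and GC trend removed; filled points had an adjusted p under 0.05. All 10 circles lie under 0, all squares but that of Kif2c lie above 0, and the diamonds lie to the left of the squares for 8 of the 10, the exceptions being Kif18b and Kif2c.

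The exons of 3 kinesins overlap a gene on the other strand, and the strand setting of the counting is not given in the sources used here. Kif20a shares 29.3% of its exon bases with Cdc23, Kif4 shares 15.1% with Pdzd11, and Kif18a shares 0.112% with Mettl15. Cdc23 had a log2 fold change of 0.01 in tumours (edgeR adjusted p = 0.918) and 0.60 in cultures (2.65e-05), where Kif20a rose by 0.70. Pdzd11 had 0.34 in tumours (0.00185) and -0.26 in cultures (0.0161), in each case opposite in sign to Kif4. Whether reads from such shared bases were told apart depends on that setting, which is not known here.

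The effect of mLJZD in tumours was then set against its effect in cultures as an interaction over all 8 libraries. The effects differed for 8 of the 10 kinesins, each with the lower value in tumours, and none differed the other way. Of the 16090 genes tested, 20.5% were called lower in this sense and 23.8% higher. Kif20b had the greatest difference among the kinesins, -1.56 (SE 0.10, edgeR adjusted p = 4.89e-09), followed by Kif14 at -1.02 (SE 0.12, adjusted p = 2.56e-06) and Kif20a at -0.91 (SE 0.11, adjusted p = 5.45e-06). Kif18b at -0.14 (SE 0.10, adjusted p = 0.286) and Kif2c at 0.12 (SE 0.10, adjusted p = 0.354) did not pass.

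With the length and GC trend removed, 6 kinesins had the lower effect in tumours and none the higher, beside 17.1% and 15.6% of all genes. Kif20b remained at -1.05 (edgeR adjusted p = 5.72e-07), Kif20a at -0.85 (1.09e-05), Kif15 at -0.50 (0.00140), Kif11 at -0.46 (0.000607) and Kif23 at -0.42 (0.00154), and Kif18b was now called at -0.33 (0.0119). Kif14 at -0.09 (0.624), Kif4 at -0.10 (0.483) and Kif18a at 0.29 (0.0601) no longer passed. Without saline replicate 2, or without mLJZD tumour replicate 1, the count in the fit with no trend removed was 7, as Kif18a was lost.

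Saline tumours and control cultures were compared for the level of kinesin RNA without mLJZD, where the tumours hold host cells beside CT26 cells. These groups are also the references of the comparisons above, so the values are given side by side only. 7 kinesins were higher in saline tumours and none was lower, beside 44.9% and 35.7% of the 15332 genes tested. All 10 had CPM above the control cultures without overlap, as did 54.6% of all genes, while 34.9% lay lower without overlap. The kinesins' median log2 difference was 0.22 and that of all genes 0.15; scaling to library totals moved the latter by 0.16 and called all 10 higher.

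Kif20b and Kif11 stood apart from the other kinesins in size. Kif20b was higher in saline tumours by 1.53 (SE 0.06, edgeR adjusted p = 4.61e-09) and Kif11 by 1.23 (SE 0.05, adjusted p = 7.09e-09), followed by Kif20a at 0.75 (SE 0.08, adjusted p = 9.15e-06). The other called values were 0.35 for Kif14, 0.22 for Kif18b, 0.21 for Kif15 and 0.17 for Kif23. Kif2c at 0.08, Kif4 at 0.06 and Kif18a at 0.05 were not called. Length medians climbed here too, from -0.61 to 1.23, and the share of protein-coding genes called higher rose from 26.3% to 82.1%. With the trend removed Kif20b at 0.77, Kif11 at 0.63 and Kif20a at 0.46 remained higher, while Kif18a at -0.85, Kif14 at -0.81, Kif4 at -0.54 and Kif15 at -0.39 were called lower, beside 35.0% and 44.4% of all genes. That fit also moved the median of all genes from 0.15 to -0.14, so part of each kinesin's move was shared by all genes. Its length medians still climbed, from -0.38 under 1000 bases to -0.02 at 8000 bases and more. Without saline replicate 1, 5 were called higher, without saline replicate 2, 4, and without control culture replicate 2, 5; without control culture replicate 1 the 7 stood.

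Genes that work with these motors were read from lists, each by its counts. In the tumours, 9 of 15 central spindle and cytokinesis genes were lower and 4 were higher, with a median log2 fold change of -0.18; of all genes 16.0% were lower and 15.4% higher. Racgap1, the partner of Kif23 in centralspindlin, was at -0.44 (edgeR adjusted p = 1.06e-06), Plk1, a mitotic kinase, at -0.35 (3.80e-05), and Cep55, which recruits the abscission machinery, at -0.34 (0.000595). Cdca8, a subunit of the chromosomal passenger complex that Kif20a carries, was higher at 0.26 (0.00687). Of 22 spindle assembly genes 14 were lower and 1 higher, with a median of -0.19. Of 10 proliferation markers 6 were lower and none higher, with a median of -0.22. These 3 lists therefore held more lower than higher calls. With 1 library left out the lower calls mostly fell in number, as did those of the 10 kinesins and the calls among all genes. Without mLJZD replicate 1 the lower calls came to 3 central spindle genes, 2 spindle assembly genes and 3 proliferation markers, and without mLJZD replicate 2 to 5, 7 and 3. Without saline replicate 1 they came to 7, 12 and 5, and without saline replicate 2 to 7, 9 and 6. Of the higher central spindle calls, 0 to 2 were made with 1 library left out.

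Of 5 tested kinesins of the spindle outside the 10, 3 were lower in the tumours: Cenpe, which moves chromosomes to the plate, at -0.29 (edgeR adjusted p = 0.000869), Kif22, a chromokinesin, at -0.26 (0.000810), and Kifc1, which draws the poles together, at -0.16 (0.0254). Of 26 tested transport kinesins only 2 were lower and 2 were higher, with a median of 0.01. Of 21 genes of the DREAM, MMB and FOXM1 regulators 6 were lower and 3 higher, with a median of -0.06. The shares over all genes were 16.0% lower and 15.4% higher. Without mLJZD replicate 1 the lower calls came to 0 spindle kinesins, 0 transport kinesins and 2 regulators, without mLJZD replicate 2 to 1, 1 and 2, without saline replicate 1 to 2, 1 and 4, and without saline replicate 2 to 2, 2 and 4.

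In the cultures the lists moved in both directions. Of 15 central spindle genes 5 were higher and 6 lower, with a median of 0.03, beside 28.8% and 26.6% of all genes. Chmp4b, a subunit of the abscission machinery, was lower at -0.61 (edgeR adjusted p = 6.87e-06), and at -0.07 (0.459) with the trend removed it was not called. Prc1, the microtubule bundler that binds Kif4 and Kif14, was higher at 0.70 (2.75e-06) and at 0.53 (6.64e-05) with the trend removed. Cit, the citron kinase that binds Kif14, was at 1.02 (4.75e-07) and at 0.26 (0.0186) with the trend removed. Of 22 spindle assembly genes 13 were higher and 4 lower, and with the trend removed 6 and 5; without mLJZD culture replicate 2, 1 was lower. Of 10 proliferation markers 5 were higher and 3 lower: Mki67, a nuclear protein of cycling cells, was at 1.31 (1.06e-08) and Cdk1, the mitotic kinase, at -0.57 (2.23e-05). With the trend removed 5 were higher and 1 lower, with Mki67 at 0.30 (0.00304) and Cdk1 at -0.86 (2.68e-06).

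Kinesins outside the 10 were called in both directions in the cultures. Of 5 spindle kinesins 3 were higher and 2 lower, beside 28.8% and 26.6% of all genes, with Cenpe at 1.11 (edgeR adjusted p = 5.04e-08) and Kif22 at -0.42 (0.000447). With the trend removed Cenpe was at 0.25 (0.0141) and Kif22 at -0.52 (0.000143), and the 5 held 2 higher and 2 lower calls with a median of 0.02. Of 19 tested transport kinesins 9 were higher and 2 lower, with a median of 0.21, and with the trend removed 7 were higher and 1 lower. Of 21 regulators 10 were higher and 4 lower, with a median of 0.08. Without control culture replicate 1, no transport kinesin and 2 regulators were lower, and without mLJZD culture replicate 1, 1 transport kinesin was lower.

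The median profile of the 10 kinesins, as log2 CPM centred on each gene's mean over the 8 libraries, was 0.13 and 0.10 in saline tumours, -0.08 and -0.09 in mLJZD tumours, -0.18 and -0.28 in control cultures and 0.23 and 0.19 in mLJZD cultures. It was thus lowest in the control cultures and highest in the mLJZD cultures. Among 13413 genes compared, those outside the set with the smallest root mean square distance from this profile over the 8 libraries were Snw1 and Rps6kb1 at 0.04 and Ddx10, Hnrnpu and Polh at 0.05. Of the kinesins, Kif23 lay nearest at 0.04, followed by Kif4 at 0.11 and Kif18a at 0.12, and Kif11 at 0.41 and Kif20b at 0.45 lay farthest. By this distance Kif23 was number 3 of all genes compared, Kif14 number 1794, Kif11 number 5820 and Kif20b number 6664. Many genes outside the set thus lay nearer to the median profile than some of its members. The trend with transcript length was left in these values. Kif11 and Kif20b, the kinesins with the greatest excess in saline tumours, were thus the least typical of the set.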

How the data were processed

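Raw counts per gene for 8 libraries were deposited as 1 table. Per the submitters' processing notes, the tools were featureCounts 2.0.3, HISAT2 2.2.1, SAMtools 1.14, FastQC 0.12.1 and Trim Galore, and the build was GRCm39; the annotation release is not stated. Symbols, transcript lengths, GC content and overlaps came from GENCODE M21 on GRCm38, joined by gene identifier, which named 52029 of 56953 identifiers. Coordinates and promoter bases are those of RefSeq on GRCm38.p6.

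Counts were tested by edgeR 4.0.16 under R 4.3.3 (quasi-likelihood F test, TMM scaling, filterByExpr, Benjamini-Hochberg adjustment over all genes tested, two-sided, threshold 0.05), with 4 libraries per comparison and 8 for the interaction. The SE was taken as the absolute log2 fold change over the root of F. The trend with length and GC content was fitted per library with natural splines of 5 degrees of freedom each and entered as offsets. DESeq2 1.42.0, other scalings, no filter, a replicate block and leaving out each library were alternatives. The fits were also run on simulated counts in which 200 genes were changed and all genes had the same setting of spread, a simpler case than these data. Named genes of a list were up to 4 with the largest change among those called. The kinesins and all lists were chosen with earlier results of these data known. One list of cell type markers is not reported here.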

Additional observations from a re-analysis of the deposited data

Results flagged for a closer look

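The effect of mLJZD differed between tumours and cultures by an interaction test for 8 kinesins, each lower in tumours, beside 20.5% of all 16090 genes called lower in this sense and 23.8% higher. On the log2 scale the difference was -0.79 for Kif11, -1.02 for Kif14, -0.83 for Kif15, -0.39 for Kif18a, -0.91 for Kif20a, -1.56 for Kif20b, -0.46 for Kif23 and -0.46 for Kif4, with edgeR adjusted p-values from 4.89e-09 for Kif20b to 0.0101 for Kif18a. With the length and GC trend removed, Kif14, Kif18a and Kif4 no longer passed. Tumours and cultures also differ in host cells and in how mLJZD was given, which cannot be told apart from the material.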

How the results depend on the processing

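In tumours, 4835 genes were called in either direction, and 1087 to 3536 with 1 library left out; of the kinesins 1 to 5 were then lower, and 4 with DESeq2, with no filter and with all 8 libraries in one fit. In cultures, upper-quartile scaling and the fit of all 8 each called 1 kinesin lower, and Kif18b turned to -0.06 and -0.02. With the length and GC trend removed, with or without the replicate block, 4 kinesins were higher and 1 lower in cultures, with Kif18a at -0.38 and Kif4 at -0.09. Between saline tumours and control cultures, 4 were then lower and 3 higher, and Kif14 (-0.81), Kif15 (-0.39), Kif18a (-0.85), Kif23 (-0.07), Kif2c (-0.01) and Kif4 (-0.54) changed sign. The median of all genes in this contrast changed sign as well, from 0.15 to -0.14. There, 4 to 7 were higher with 1 library left out, and Kif18a ranged from -0.04 without control culture replicate 1 to 0.14 without saline replicate 1, with -0.02 without saline replicate 2. For the interaction, Kif2c turned to -0.05 with library totals and to -0.02 with the trend removed, and Kif18a to 0.29. The share of higher calls among all genes moved from 55.7% to 44.1% in the control contrast with the trend removed and from 53.7% to 39.7% in the interaction with library totals. The cause of these moves was not tested.

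Over all alternatives, direction and side of the threshold were kept in 103 of 130 values in tumours, 118 of 130 in cultures, 101 of 130 in the control contrast and 146 of 160 for the interaction. A kinesin not called in the main fit counts as kept where it stayed uncalled with the same sign. In tumours the other 27 values all lost a call, so the called kinesins were less stable than the pooled count. No shared effect of the replicate number was seen, as deviations correlated at -0.10 in tumours, 0.02 in cultures and 0.00 in the control contrast. Such values cannot show whether libraries were handled as pairs, and the labels do not say. With the replicate block 6 kinesins were lower in tumours, as Kif23 missed the threshold. With 2 libraries per group, spread is estimated mainly across genes, and small changes such as that of Kif18b are near the limit of detection.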
